A study of Mus musculus with 2 samples.

Results

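The Rab GTPases of skeletal muscle were compared between transgenic mice overexpressing retinoid X receptor γ (RXRγ mice) and non-transgenic control mice. The members were all genes whose symbol in the platform annotation is Rab followed directly by a number and at most 1 isoform letter, so that interacting proteins such as Rab11fip1 and Rab3gap1 were left out. There were 59 such genes on 132 probe sets, of 18194 genes with a probe set named for 1 gene alone. The RXRγ mice carried an RXRγ transgene under the human α-actin promoter and came from line 4-3. Both groups were C57BL6 females at 4 months of age, with free access to food. RNA was pooled within each genotype, from 5 animals by the series design and from 3 by the sample labels, and each pool was hybridized to 1 Affymetrix MG430 array. With 1 array per genotype there were no replicates, so no value has an error, the genotypes could not be tested against each other, and how far another pool of mice would differ is unknown.

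Rab proteins are small GTPases that switch between a GTP-bound form on membranes and a GDP-bound form that can be taken up into the cytosol. Each marks particular membranes and recruits effector proteins that bud, move, tether or fuse vesicles. Exchange factors load them with GTP, GTPase-activating proteins switch them off, and prenyl groups at their C-terminus hold them in the membrane. In skeletal muscle they are best known for carrying the glucose transporter GLUT4 to the surface, where insulin signalling acts on Rab GTPases through the activating proteins TBC1D4 and TBC1D1.

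Each transcript is read on the array by a probe set, a collection of short oligonucleotides, whose signal is given here in array units on a linear scale. A gene was counted as measured when at least 1 of its probe sets had a signal above 250 on the brighter array. Its value is the mean log2 ratio of RXRγ over control mice of those probe sets, and a difference of at least 0.4 on the log2 scale was called higher or lower. Where 1 signal lay under 150 it was replaced by 150, and the difference is written as at least that many fold. Signals of different probe sets depend on their oligonucleotides, so levels were compared between genotypes only and not between genes.

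The transgene was seen on the arrays, where Rxrg reached 9172 in RXRγ mice and 334.5 in control mice. The tissue label fitted the muscle fibre markers, all 7 of which were above 250. Each of the 7 had the smaller signal in RXRγ mice, and their sum was 60100.6 in RXRγ mice and 71174.5 in control mice, with Ckm at 10909 against 11776. The slow myosin heavy chain Myh7 (303.2 against 1754) and the oxidative fast one Myh2 (5703 against 9978) were lower in RXRγ mice, while Myh4 had 11145 against 11631. The summed signal of 6 macrophage and leukocyte markers was 1420.8 in RXRγ mice and 1179 in control mice. All 6 had the larger signal in RXRγ mice, but only 2, Csf1r and Lyz2, reached 250. Of 5 endothelial markers none reached 250, and their sum was 503.1 against 643.5. The sum of 5 fibroblast markers was 10418 against 8597.4, over which Lum had 1770.8 against 699.1 and Col1a1, in the other direction, 527.9 against 612.8. The sum of 3 adipocyte markers was 6401 against 5858.5. That of 3 Schwann cell and nerve markers was 684.2 against 535.5, of which Pmp22, the only one to reach 250, had 637.4 against 500. That of 3 mast cell markers was 220.3 against 192.8, with none at 250 and Mcpt4 in the other direction (35.9 against 45.6). The markers of erythroid cells with a probe set named for them alone, Hba-a1 and Alas2, were at 0.9 and 27.3 in RXRγ mice and at 1.7 and 42.7 in control mice. The part of these fibre type and cell type markers in the Rab values was not tested, and in pooled tissue RNA fewer cells of a type and less RNA per cell cannot be told apart.

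Of the 59 Rab genes, 21 were measured (35.6%, against 20.8% of all genes), on 35 of the 132 probe sets. On the array of RXRγ mice 4 of them, Rab8b, Rab11b, Rab1b and Rab21, were higher, and 4, Rab40b, Rab2a, Rab12 and Rab9, were lower, while 13 differed by less than 0.4. These counts lay close to those of the genes at large: 16.8% of the 3780 measured genes were higher and 20.1% were lower, against 19% of the measured Rab genes in each direction. With each array divided by its median instead, 3 Rab genes were higher and 5 were lower, beside 13.3% and 26% of all genes. The median log2 ratio of the 21 genes was -0.00024, against -0.04 for all genes, and the interquartile range ran from -0.21 to 0.15 for the Rab genes and from -0.32 to 0.26 for all genes. Of the 21, 9 lay within 0.2 of 0 (42.9%, against 36.3% of all genes). Because 1 bright array was enough to be measured, a dim gene could enter through the genotype in which it was higher. Rab8b, Rab22a, Rab35 and Rab40b were above 250 on 1 array only. Among the 17 genes above 250 on both arrays, 3 were higher and 3 were lower, beside 12.1% and 16.4% of all genes so filtered.

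**Figure D1:**
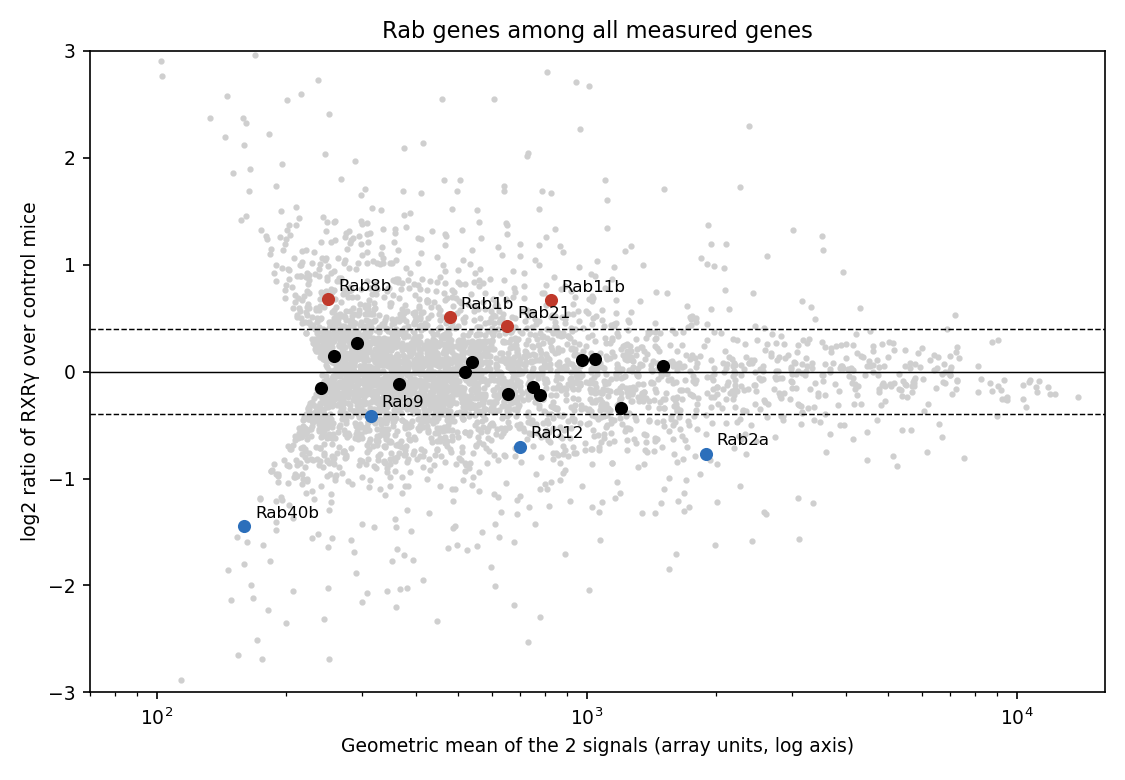
log2 ratio of RXRγ over control mice against the geometric mean of both signals (log axis, array units), 1 point per gene, for all measured genes (grey) and the measured Rab genes (red higher, blue lower, black neither); 26 genes with a log2 ratio beyond 3 lie outside the axes. The Rab genes lie on both sides of 0 among the grey points; Rab40b is drawn at its measured ratio although its signal in RXRγ mice was under 150, so its place on the vertical axis is not a reliable fold.

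Each transport step held 3 to 5 measured Rab genes. These are too few to set a step apart from all measured genes, of which 16.8% were higher and 20.1% lower. Of 12 Rab genes of exocytosis and transport to the plasma membrane 3 were measured, and 1 of them, Rab8b, was higher. Rab8b, a close relative of Rab8a that carries cargo from the Golgi and recycling endosomes to the surface, measured 315.8 in RXRγ mice and 197.3 in control mice, a 1.60-fold difference. Its other probe set was near background on both arrays (7.5 and 2.7). Rab8a itself did not reach 250 and is therefore not counted, with 228.3 in RXRγ mice against 155.0 in control mice (log2 ratio 0.56) at the brightest of its 3 probe sets. Thus the brightest probe set of both Rab8 genes was the stronger on the array of RXRγ mice. Rab3a, known from the release of synaptic vesicles, had 320.4 against 267.0 (log2 ratio 0.26), at a probe set whose name ends in _x_at and whose oligonucleotides may therefore bind other transcripts too. Its other probe set had 103.3 against 86.4, a similar log2 ratio of 0.26 at a low signal. Rab10, which brings GLUT4 vesicles to the surface of adipocytes, had 3 probe sets, at 563.3 against 536.5, 943.3 against 921.7 and 1793.5 against 1507.3. All 3 lay slightly above the control array, and the mean log2 ratio was 0.12.

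On the recycling route, with 4 of 9 genes measured, Rab11b was higher and its close paralog Rab11a was not. The signal of Rab11b, which returns receptors from recycling endosomes to the surface, was 1038.9 in RXRγ mice and 652.9 in control mice, a 1.59-fold difference (log2 ratio 0.67). Its 2 other probe sets were dim, at 57.9 against 28.8 and at 29.2 against 14.9. The 2 probe sets of Rab11a had 613.8 against 546.5 and 500.1 against 496.4, log2 ratios of 0.17 and 0.01. The log2 ratio of Rab11b thus exceeded that of Rab11a by 0.58, a difference that could not be tested on 1 array per genotype. Rab14, which moves cargo between endosomes and the Golgi, showed the smallest difference of all measured members: its 4 probe sets ran from -0.05 to 0.07, and its mean signal was 523.3 in RXRγ mice and 516.4 in control mice. Rab35, which returns membrane to the surface by a fast route, had 229.0 against 254.0. Rab4a, of early recycling endosomes, stayed under 250 and had 110.4 against 166.8 and 62.7 against 109.0 at its 2 probe sets, the control array being the brighter at both.

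Upstream sequences are shown for the genes with the largest increases and decreases that the RefSeq promoter table holds, and for Rab11a beside its paralog. Rab2a, which was lower (log2 ratio -0.77), has no entry there and is not shown. Each is the 250 bases before the annotated start of the gene, taken from RefSeq on build GRCm38.p6, 5′ to 3′ on the strand of the gene. Capitals mark the GC box GGGCGG and the CCAAT box CCAAT on either strand. The windows of the genes with the larger signal in RXRγ mice and of Rab11a lie on the minus strand at chr9:66919706-66919955 (Rab8b), chr17:33760487-33760736 (Rab11b) and chr9:64737757-64738006 (Rab11a).
Rab8b: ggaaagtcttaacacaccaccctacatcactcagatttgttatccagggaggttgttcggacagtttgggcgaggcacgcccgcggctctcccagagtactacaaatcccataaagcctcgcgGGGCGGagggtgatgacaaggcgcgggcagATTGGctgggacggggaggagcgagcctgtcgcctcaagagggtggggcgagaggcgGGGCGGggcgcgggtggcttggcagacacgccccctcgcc
Rab11b: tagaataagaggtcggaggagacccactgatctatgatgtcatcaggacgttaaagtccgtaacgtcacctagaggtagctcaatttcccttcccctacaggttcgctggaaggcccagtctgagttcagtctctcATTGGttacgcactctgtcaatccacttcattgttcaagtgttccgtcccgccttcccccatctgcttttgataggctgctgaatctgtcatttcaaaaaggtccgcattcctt
Rab11a: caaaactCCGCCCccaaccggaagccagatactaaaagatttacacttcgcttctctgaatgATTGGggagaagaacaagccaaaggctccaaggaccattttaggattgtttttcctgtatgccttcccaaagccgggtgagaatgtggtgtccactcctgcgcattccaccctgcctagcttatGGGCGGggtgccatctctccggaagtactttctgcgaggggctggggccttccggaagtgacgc
The windows of the lower genes also lie on the minus strand, at chr17:66519671-66519920 (Rab12) and chr11:121388252-121388501 (Rab40b).
Rab12: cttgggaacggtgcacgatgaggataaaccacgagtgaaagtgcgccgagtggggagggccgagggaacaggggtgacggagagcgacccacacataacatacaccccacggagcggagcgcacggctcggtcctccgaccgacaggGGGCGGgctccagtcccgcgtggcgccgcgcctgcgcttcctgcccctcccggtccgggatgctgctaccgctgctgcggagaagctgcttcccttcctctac
Rab40b: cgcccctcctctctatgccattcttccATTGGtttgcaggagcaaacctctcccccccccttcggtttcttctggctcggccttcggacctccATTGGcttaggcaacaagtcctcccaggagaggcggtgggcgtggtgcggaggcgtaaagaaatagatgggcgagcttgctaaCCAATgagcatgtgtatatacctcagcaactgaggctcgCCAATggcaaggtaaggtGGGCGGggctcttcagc

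The 5 windows differed in these letters. Rab8b held 2 GC boxes and Rab11a held 2, Rab12 and Rab40b had 1 each, and Rab11b had none, although a CCAAT box was present in the windows of Rab8b, Rab11b and Rab11a. Rab40b had 4 CCAAT boxes and Rab12 none. Of the 21 measured genes 19 had an entry in the table, with 21 windows in all, Rab3a and Rab7 having 2 each. A GC box was present in 15 of the 21 windows, beside 32.7% of the 32851 windows in the table, and a CCAAT box in 12, beside 33.9%. Over the 60 windows of all Rab genes in the table, measured or not, the shares were 66.7% and 40%. The 32851 windows were not limited to genes measured on these arrays, so they are not a matched background. The median GC content was 63.2% in the windows of measured Rab genes and 52.4% in all windows. The hexamer AGGTCA, which RXR and its partners bind in pairs, was searched on both strands and was in none of the 21 windows and in 14.0% of all windows. Of the 60 windows of all Rab genes, 3 (5%) held it. A direct repeat of this hexamer with 1 base between the copies was in none of the 21 and in 0.0335% of all. With so small a share in all windows, the absence of the direct repeat from 21 windows carries no information. These matches describe letters within a short window and do not show binding. Their absence does not show a lack of sites, since bases further upstream were not searched.

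In the early secretory pathway, with 5 of 15 genes measured, Rab1b was higher and Rab2a was lower. Rab1b, which controls transport of vesicles from the endoplasmic reticulum to the Golgi, gave 571.8 in RXRγ mice and 402.1 in control mice at its only probe set, a 1.42-fold difference. Rab1a, an isoform with the same function, had 2309.6 against 2246.6 and 739.5 against 702.6, so that the log2 ratio of Rab1b exceeded that of Rab1a by 0.45. As with the Rab11 genes, it was the b isoform that stood apart on the 2 arrays. Rab2a acts between the endoplasmic reticulum and the Golgi, and also in the delivery of membrane to lysosomes. Its 3 probe sets above 250 had 1257.8 against 1974.1, 1726.6 against 3069.4 and 1341.6 against 2376.6. All 3 were lower in RXRγ mice, with log2 ratios from -0.83 to -0.65, and the mean signal was 1442 against 2473 (1.70-fold lower). Of its 4 dimmer probe sets, 3 also had the smaller signal in RXRγ mice (91.3 against 138.9, 51.2 against 87.0 and 38.3 against 51.7), and the fourth was near background (14.4 against 3.3). Rab2a was thus the only called gene supported by more than 1 probe set above 250. Its isoform Rab2b gave at most 39.7 in RXRγ mice and 53.1 in control mice over its 5 probe sets.

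The remaining Golgi members lay within 0.4. Rab6a, which directs traffic within and out of the Golgi, had 3 probe sets at 874.3 against 921.2, 755.3 against 893.5 and 508.0 against 547.0. Rab18, found on the endoplasmic reticulum and on lipid droplets, had 598.7 against 763.1 and 851.5 against 899.2. Both genes had the smaller signal in RXRγ mice at every probe set above 250, with mean log2 ratios of -0.14 and -0.21.

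**Figure D2:**
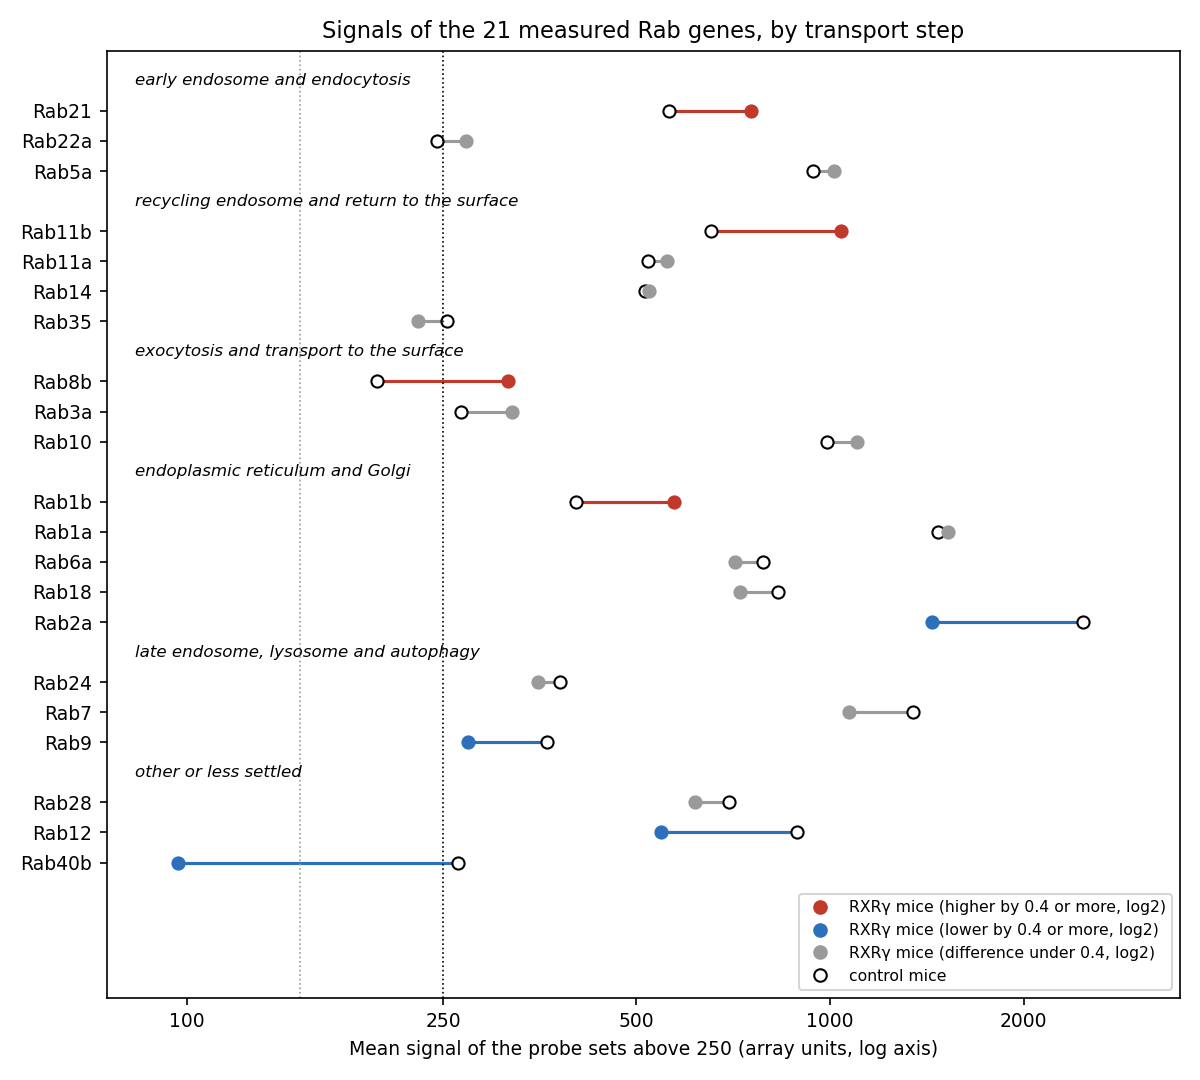
Mean signal of each measured Rab gene (log axis, array units) in RXRγ mice (filled circles) and control mice (open circles), 1 array per genotype, grouped by transport step; dotted lines mark signals of 150 and 250. The red circles of Rab21, Rab11b, Rab8b and Rab1b lie to the right of their open circles and the blue circles of Rab2a, Rab9, Rab12 and Rab40b to the left.

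Among the Rab genes of early endosomes, 3 of 6 of which were measured, Rab21 was the only higher one. Rab21, which guides the uptake of integrins, had 754.8 in RXRγ mice and 561.7 in control mice (log2 ratio 0.43). Its other probe set, just short of 250, had 242.3 against 228.3 (log2 ratio 0.09), so the call rests on 1 of 2 probe sets and on a value near the threshold. With a signal above 150 required instead, both entered and the log2 ratio was 0.26, and with each array divided by its median it was 0.33. Rab5a, the master regulator of early endosome fusion, had 1013.3 against 939.9. Rab22a, which sorts cargo in the same compartment, had 271.4 against 245.1 at the probe set counted, but 139.7 against 162.5 and 142.3 against 184.2 at dimmer ones, so its probe sets went both ways. Rab5b and Rab5c did not reach 250 (the highest signals were 72.2 and 106.5 in RXRγ mice and 87.2 and 119.9 in control mice).

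The 3 measured members of the late endosome, lysosome and autophagy all had the smaller signal in RXRγ mice, and 1 of them passed the threshold. Of all measured genes 53.5% had a log2 ratio below 0 and 20.1% were lower, so 3 genes do not set this route apart. Rab9, which returns mannose 6-phosphate receptors from late endosomes to the Golgi, had 273.0 in RXRγ mice, against 363.0 in the controls. The log2 ratio of -0.41 lay just past the threshold, and was -0.39 with intensity-dependent centring and -0.37 with 32 added to each signal. Rab7, which drives the fusion of late endosomes and autophagosomes with lysosomes, had 1474.3 against 1822.6 and 667.7 against 869.0 at its 2 probe sets. Its log2 ratio of -0.34 did not pass, although with each array divided by its median it was -0.44. Rab24, linked to autophagy, had 350.8 against 379.6, and its dimmer probe set had 165.5 against 203.5.

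The largest differences toward a smaller signal, apart from that of Rab2a, were in members outside these groups. Rab40b belongs to a small branch of the family with a SOCS box, through which it serves a ubiquitin ligase. It gave 96.7 on the array of RXRγ mice, against 263.9 on that of control mice. Since the signal in RXRγ mice lay under 150, Rab40b was at least 1.76-fold lower. Its second probe set was dim, at 6.7 against 33.2. Rab12, which sends the transferrin receptor from recycling endosomes to lysosomes, had 546.6 against 888.8, a 1.63-fold lower signal, at a probe set that may detect several transcript variants of the gene (its name ends in _a_at). The other probe set of Rab12 was near background (6.6 and 3.8), and only when it was averaged in, with no filter on signal, did the log2 ratio become 0.048. Rab28, known from photoreceptors and cilia, had 893.7 against 979.4 and 338.4 against 412.3, within the threshold at both probe sets.

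**Figure D3:**
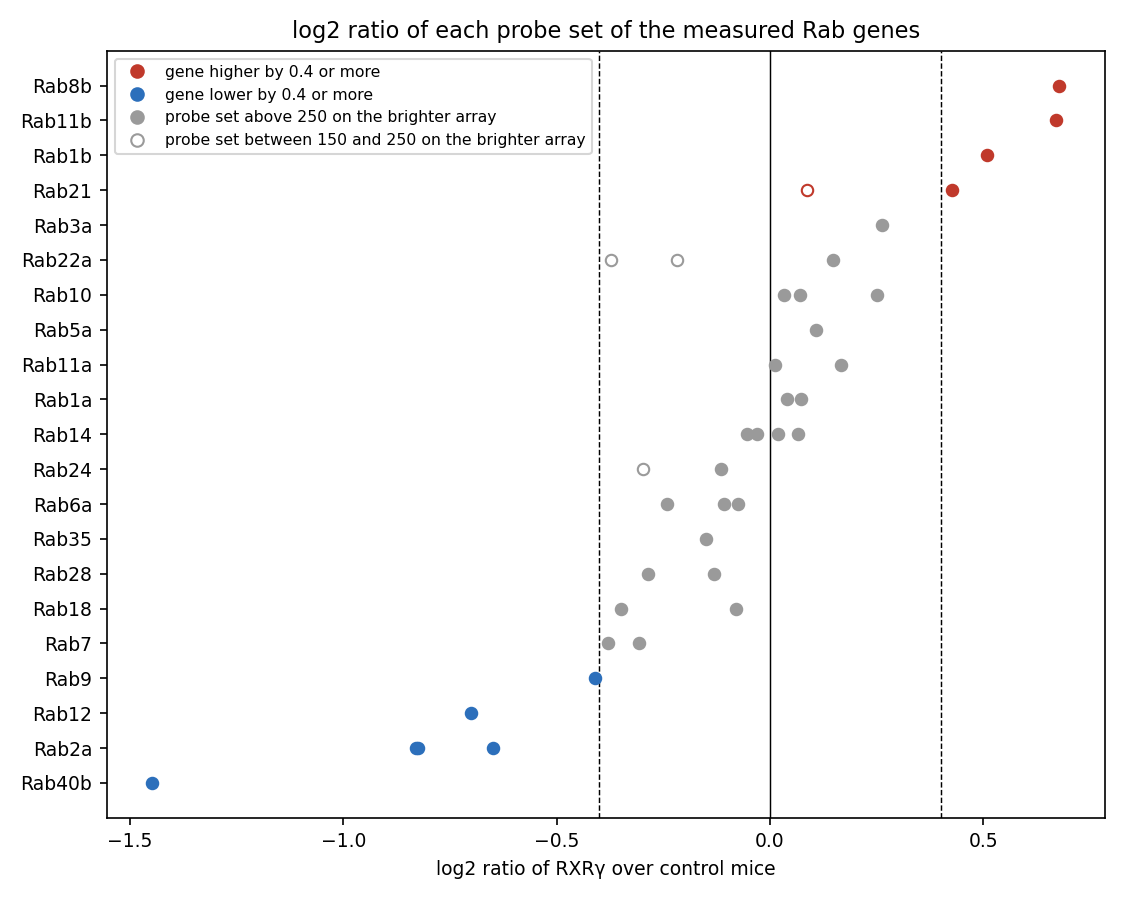
RXRγ over control log2 ratio of each probe set of the measured Rab genes, 1 row per gene; filled points exceed 250 on the brighter array and open points lie between 150 and 250 there, dimmer ones not being drawn. Red marks genes higher and blue genes lower by at least 0.4 (dashed lines); the 3 filled points of Rab2a lie together between -0.83 and -0.65, and the open point of Rab21 lies at 0.09, far from its filled one.

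Of the 9 measured Rab genes with more than 1 probe set above 250, the gap between the highest and lowest log2 ratio of a gene had a median of 0.16 and reached 0.27 in Rab18, against a median of 0.20 over the 1213 such genes on the arrays. Of these 9 genes Rab2a alone was called. The 7 other called genes each had 1 probe set above 250, so for them no second bright probe set was at hand.

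A set of 8 Rab genes reported in the traffic of GLUT4 (Rab8a, Rab10, Rab13, Rab14, Rab4a, Rab11a, Rab5a and Rab28) was considered on its own. Of these 5 were measured, and none was higher or lower by 0.4, beside 16.8% of all measured genes higher and 20.1% lower. A set of 5 genes is too small to be told apart from these shares. Their log2 ratios ran from -0.21 (Rab28) to 0.12 (Rab10), with a median of 0.09. Rab13, which acts on GLUT4 vesicles in cultured muscle cells, was dim on both arrays (72.2 in RXRγ mice and 80 in control mice), and Rab8a and Rab4a had opposite signs below the signal limit, as given above.

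The 38 Rab genes that were not measured included several tissue-restricted isoforms. Only Rab8a, Rab33b (167.6 in RXRγ mice and 158.3 in control mice) and Rab4a had a signal above 150 on either array. Rab4b (104.2 against 43.1), Rab29 (113.6 against 54.3), Rab23 and Rab5c peaked between 100 and 150. The other 31 peaked under 100. Among these were Rab27a and Rab27b, which release secretory granules and lysosome-related organelles, with at most 20.1 and 23.3 in RXRγ mice and 12.7 and 19.9 in control mice. Rab3b, Rab3c and Rab3d, which act in regulated secretion, peaked at 3.8, 9.7 and 52.7 in RXRγ mice and at 4.1, 11.5 and 35.0 in control mice. Rab25 and Rab17, known from epithelia, and Rab32 and Rab38, known from pigment cells, peaked at 3.7, 13.6, 29.8 and 64.5 in RXRγ mice and at 2.6, 21.7, 19.7 and 33.6 in control mice. The remaining members, Rab6b, Rab7b, Rab9b, Rab15, Rab19, Rab20, Rab26, Rab30, Rab31, Rab33a, Rab34, Rab36, Rab37, Rab39, Rab39b, Rab40c, Rab42, Rab43 and Rab44, peaked between 0.8 (Rab33a) and 89.5 (Rab34) in RXRγ mice and between 1.6 (Rab44) and 95.1 (Rab40c) in control mice. Signals as low as these give no fold. Of the 14 numbered subfamilies with more than 1 annotated isoform, 8 had 1 measured isoform, 4 had none and 2 (Rab1 and Rab11) had more than 1.

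Regulators and effectors of Rab GTPases were taken from a list of 132 genes, of which 123 had a probe set named for them alone and 34 were measured. Of the 34, 6 were higher in RXRγ mice (17.6%, against 16.8% of all genes), 10 were lower (29.4%, against 20.1%) and 18 lay within 0.4, with a median log2 ratio of 0.06. Of these calls, 4 of the 6 higher and 5 of the 10 lower genes were above 250 in 1 genotype only. Among the 24 regulators and effectors above 250 on both arrays, 2 were higher and 5 were lower, beside 12.1% and 16.4% of all genes so filtered. By role, 1 of 4 measured genes of prenylation and membrane recycling was higher and 1 lower, and 2 of 13 exchange factors were higher and 3 lower. Of the GTPase-activating proteins 2 of 4 were higher and 1 lower, and of the effectors 1 of 13 was higher and 5 lower. Of these called effectors Rilpl1 alone was above 250 on both arrays. Both higher GTPase-activating proteins were under 250 in control mice.

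The largest increase was that of Sytl2, an effector of Rab27 in vesicle docking, with 607.6 in RXRγ mice against 91.8 in control mice, at least 4.05-fold higher, while the Rab27 genes themselves were near background as given above. Tbc1d20, which switches off Rab1, had 327.2 against 115.2 and was at least 2.18-fold higher. Dennd5a, which binds Rab6, had 1403.2 against 745.3, and Tbc1d10b, which acts on Rab35 among others, 383.3 against 249.5. Rab3ip, the exchange factor that activates Rab8, had 350.4 against 231.8 (log2 ratio 0.60). Like Rab8b, it was above 250 in RXRγ mice only, so the filter itself favoured a higher call for both. Gdi2, which extracts GDP-bound Rab proteins from membranes and keeps them soluble, had the larger signal at all 6 probe sets, with log2 ratios from 0.36 to 0.54 and a mean signal of 1372.6 against 992.5.

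Among the lower genes, Plin3 encodes a protein of lipid droplets that also binds Rab9. It gave 89.8 in RXRγ mice and 262.1 in control mice, at least 1.75-fold lower. Rilpl1, whose product binds phosphorylated Rab8 and Rab10, had 613.0 against 1671.8 and 746.1 against 1683.6 at its 2 probe sets above 250, both lower by more than 1 on the log2 scale. The Rab11 effector gene Rab11fip5 had 131.7 against 313.6 (at least 2.09-fold lower), and Rab11fip3, another, had 224.1 against 399.4. Gcc2, a tether at the Golgi that binds Rab6 and Rab9, had 156.0 against 286.4. Chm, which presents newly made Rab proteins for prenylation, was lower at both probe sets (191.5 against 307.1 and 201.7 against 289.8). Rabgef1, the exchange factor of Rab5 and Rab21, was lower at all 3 (400.2 against 602.3, 515.7 against 687.1 and 276.2 against 425.2). Ccz1, part of the exchange factor of Rab7, had 390.3 against 606.6.

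Of the activating proteins that link insulin to GLUT4 vesicles, Tbc1d4 was lower, with 378.5 in RXRγ mice against 578.1 in control mice at the probe set above 250 (log2 ratio -0.61), while its other probe set was at 21 in RXRγ mice and 23.5 in control mice. Tbc1d1 did not reach 250, with at most 120.6 in RXRγ mice and 122.2 in control mice.

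**Figure D4:**
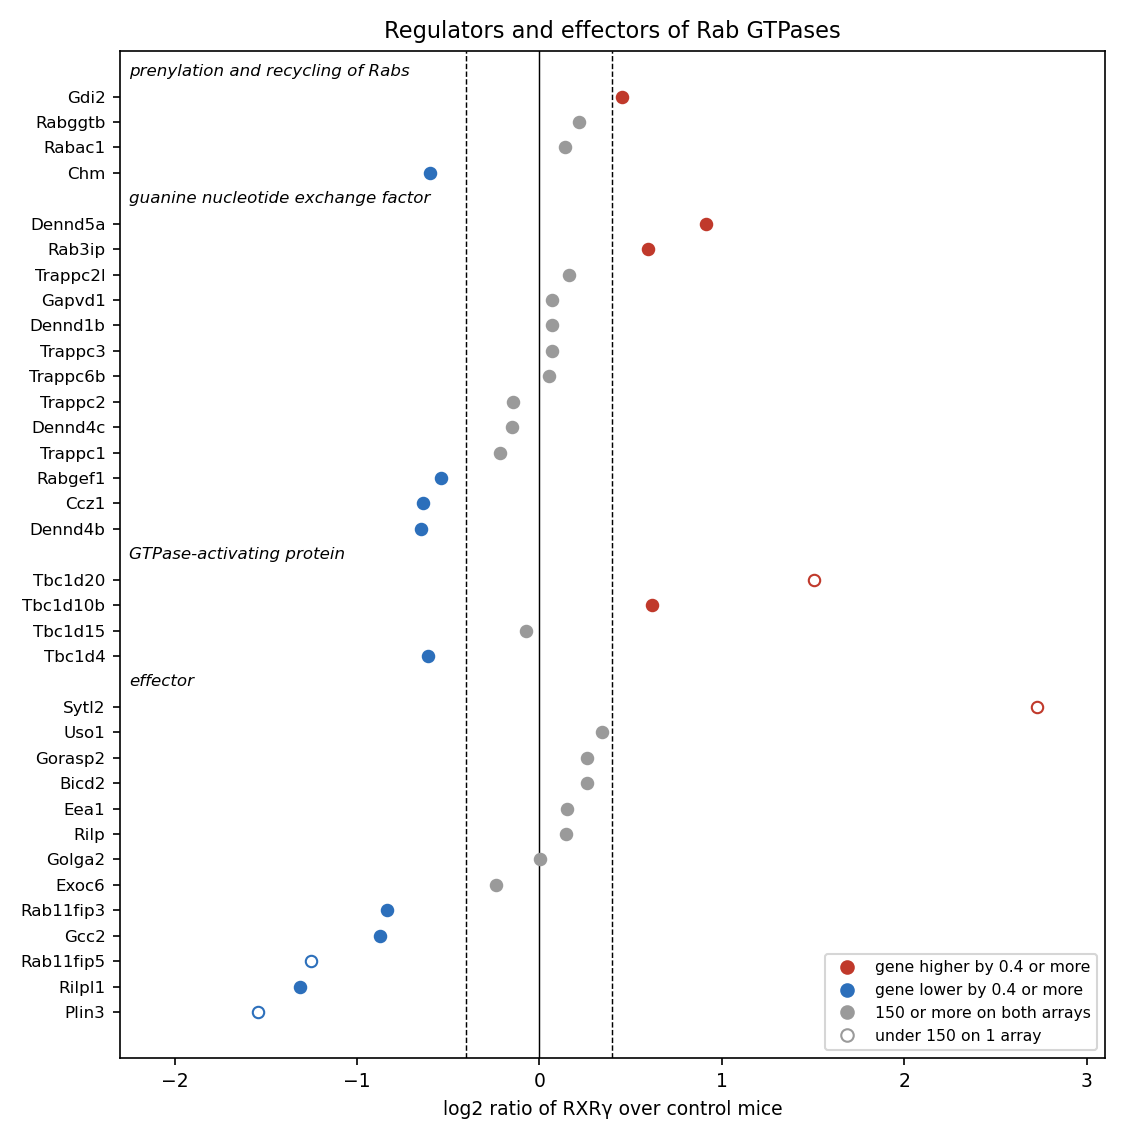
RXRγ over control log2 ratio of each of the 34 measured regulators and effectors of Rab GTPases, 1 row per gene, grouped by role; open circles are genes under 150 on 1 array, whose ratio is not a reliable fold. Red and blue mark genes higher or lower by at least 0.4 (dashed lines). Of the 13 effectors 5 are blue, of which Rilpl1 alone was above 250 on both arrays, and Sytl2 lies furthest to the right.

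The 8 calls among the Rab genes differed in how far they depended on the processing. Under the 12 other settings in which single genes were recomputed, Rab8b, Rab11b, Rab1b and Rab40b stayed past the threshold on the same side in each setting that kept them. Filters above 500, or above 250 on both arrays, dropped Rab8b and Rab40b, and a mean above 250 also dropped Rab40b. Many settings cannot move a gene with 1 probe set above 250, so staying past the threshold is no independent check of these calls. Rab21 and Rab9 each fell within it in some, and Rab12 and Rab2a only when dim probe sets were averaged in without a filter. The log2 ratio of Rab40b was -0.82 with signals under 150 set to 150.

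**Figure D5:**
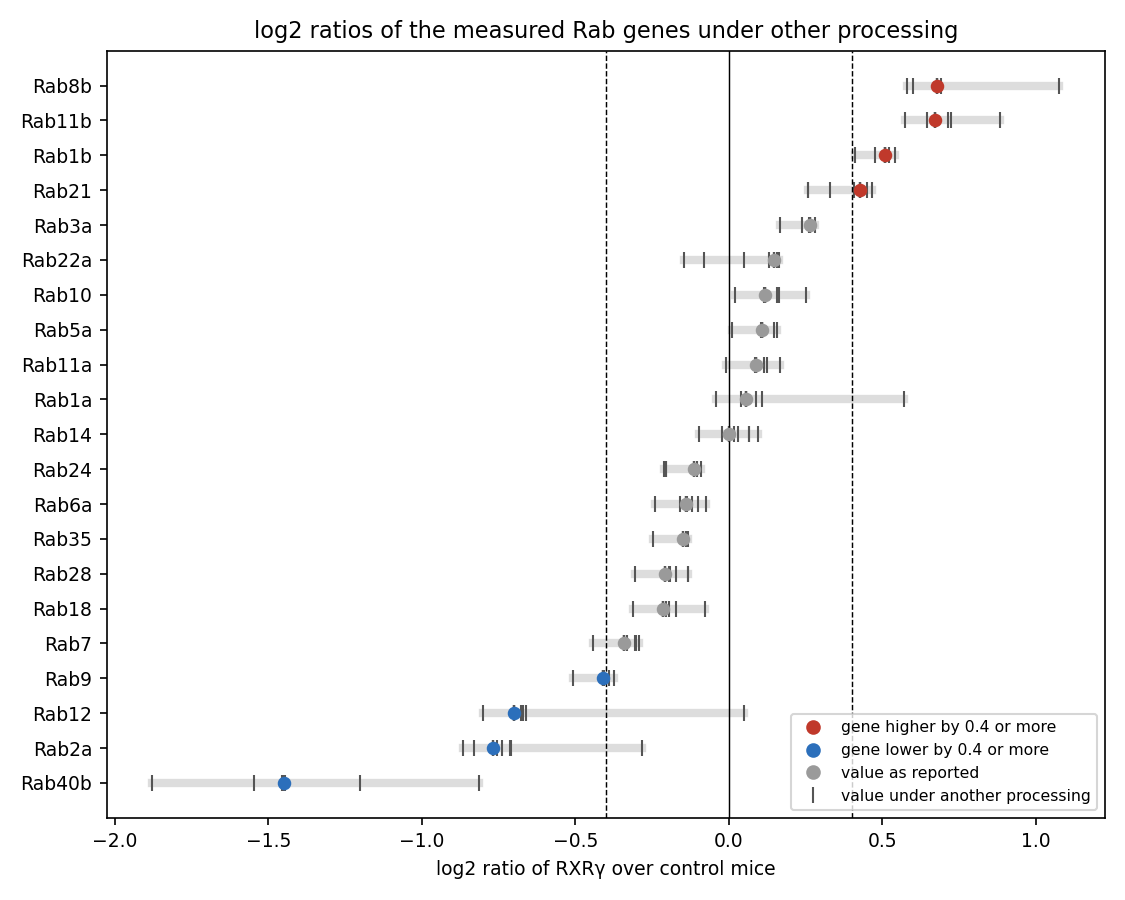
RXRγ over control log2 ratio of each measured Rab gene as reported (circles; red higher, blue lower) and under other scalings, filters and choices of probe sets (ticks; the grey bar is their range), with dashed lines at 0.4 in either direction. The ticks of Rab8b, Rab11b, Rab1b and Rab40b all lie beyond the dashed lines, although the stricter filters dropped Rab8b and Rab40b. The tick of Rab12 near 0 is the value without a filter on signal.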

How the data were processed

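Skeletal muscle RNA of RXRγ and control mice, 1 pool per genotype, was hybridized to 1 array each. The authors made the deposited signal intensity values with the Affymetrix Gene Chip software from perfectly matched and mismatched oligonucleotides. They are linear, none is below 0, and their mean without the lowest and highest 2% was 100.0 on both arrays; how they were scaled is not stated in the sources used. The signal limits and the threshold follow the methods of the study, whose further condition, a present call, was not used here. Of the 45101 probe sets, the platform annotation gives 1 gene symbol for 34958, several for 932 and none for 9211; only the first kind was used. All 59 Rab symbols are also those of the RefSeq annotation of GRCm38.p6.

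log2 ratios were computed without a pseudocount and averaged over the probe sets of a gene above 250 on the brighter array. With 1 array per genotype no test was run. The members, the lists of regulators and markers and the thresholds were chosen with earlier results of these data known. Named were all measured members and, of the regulators, the 4 largest increases and the 4 largest decreases by measured log2 ratio (with signals under 150 set to 150, Plin3 would fall behind Rab11fip3), Tbc1d1, Tbc1d4 and Gdi2; the other regulators described singly (Rab3ip, Rab11fip3, Chm, Rabgef1 and Ccz1) were picked after their values were seen. For markers the brightest probe set of each gene was taken; 34 of 39 had one. The steps were tested on simulated data. Computations ran in Python 3.11.15 (pandas 2.3.3; numpy 2.4.6), and quantile normalization and loess in limma 3.58.1 under R 4.3.3.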

Additional observations from a re-analysis of the deposited data

How the results depend on the processing

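Alternatives changed 1 choice at a time. No paired analysis was possible because each genotype has 1 array, and for the same reason none could be left out. Counts were taken as changed beyond 1.5 times the reported count, and medians and log2 ratios beyond 0.20, the median span of a gene's probe sets. The median log2 ratios of the Rab genes and of the regulators changed by less than this in every setting run. Without a filter on signal, 16 of 59 Rab genes were higher and 6 lower, beside 28.6% and 22.6% of all genes. At a threshold of 1, by measured ratios, 0 of 21 were higher and 1 (Rab40b) was lower, beside 5.05% and 4.1%. With signals under 150 set to 150, Rab40b was at -0.82 and would not pass. Above 500 on the brighter array 2 of 14 were lower, beside 21.2%. Of the regulators and effectors, 12 of 54 were higher with a signal above 150 (18.3% of all genes). Above 500, 3 of 18 were higher and 5 lower (16.4% and 21.2%), and above 250 on both arrays 2 of 24 and 5 (12.1% and 16.4%). With a mean signal above 250, 6 of 28 were lower (18.1%). Without a filter 25 of 123 were higher and 23 lower (28.6% and 22.6%). At a threshold of 1, by measured ratios, there were 2 of 34 and 3 (5.05% and 4.1%). One of the lower ones, Plin3, was at -0.81 with signals under 150 set to 150 and would not pass. Without a filter the log2 ratio of Rab12 was 0.048, the opposite sign, because its near-background probe set entered the mean; those of Rab2a and Rab1a were -0.28 and 0.57. The log2 ratios of the 21 measured Rab genes and of 10 regulators were recomputed; those of Rab3ip, Rab11fip3, Chm, Rabgef1 and Ccz1 were not. Of the recomputed values 320 stayed within 0.20 of the reported one, 21 changed by more, and 1, that of Rab12, was a called value that changed sign. Uncalled values that changed sign were those of Rab22a (-0.15 above 150 and -0.083 without a filter), of Rab1a and Rab11a with median scaling (-0.04 and -0.0091) and of Rab14, which ran between -0.098 and 0.095. Signals under 150, which hold most Rab genes, limit what the arrays can show.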
